A study of Mus musculus with 24 samples.

Results

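Testes of Atad2 knockout (KO) males at postnatal day 20 were compared here with testes of wild-type (WT) males at day 22, a pairing proposed because KO and WT of the same day can stand at different points of the first wave of spermatogenesis. It takes 8 of the 24 libraries of the study, 4 KO and 4 WT, picked by the genotype and day in their labels, and every gene was examined. The KO males were homozygous for a knockout-first Atad2 allele in which a lacZ cassette is spliced to the upstream exons and, after a cross to mice with a ubiquitous CMV-Cre, the neo cassette and 1 downstream exon are gone. The WT males carried no targeted allele, and the strain background of either group is not given in the sources used here. Total RNA was depleted of ribosomal RNA and sequenced with strand kept. The labels name testis as the source, while their protocol also speaks of purified spermatogenic fractions.

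ATAD2, found in male germ cells, joins a bromodomain, the module that binds acetylated histones, to an ATPase, and acts on chromatin. In the first wave, germ cells move together from spermatogonia through meiotic prophase to round spermatids, so a testis from a slightly older juvenile holds more late cell types. A day and a genotype therefore both separate these groups. For any gene, the difference of KO day 20 from WT day 22 equals the mean genotype difference over days 20 and 22 minus the mean change from day 20 to day 22. To show both terms, the reverse pairing, KO day 22 against WT day 20, and the mean KO against WT difference at days 24 and 26 are given beside the main values. Neither shares a library with the 8 compared.

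The 8 libraries held 11755730 to 19491935 assigned read pairs, and 18506 to 19080 genes had a count in each. Levels are in CPM, the gene's share of a library's assigned pairs on the usual scale, corrected with TMM factors (trimmed mean of M values). Fold changes are log2, KO minus WT, with a standard error (SE), and a gene was called at an adjusted p under 0.05 in the quasi-likelihood test of edgeR with Benjamini-Hochberg adjustment over 17170 genes. The labels number the replicates without naming animals, so p-values measure the spread between libraries of a group. That spread was estimated from all 24 libraries, in 8 groups of genotype and day. In whole tissue, fewer cells of a type and less RNA per cell cannot be told apart.

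A stage score placed the libraries along the first wave. It is the mean centred log2 level of 15 round spermatid genes minus that of 11 pachytene genes, and it is described without a test because the pairing was chosen for it. The KO day 20 libraries scored -0.79, -1.35, -0.05 and 0.23, and the WT day 22 libraries 0.09, -0.02, 0.09 and -0.07. Of the KO libraries 2 lay below every WT library, 1 lay within the WT range and 1 above it. The means were -0.49 ± 0.72 (SD, n = 4) in KO day 20, 0.02 ± 0.08 in WT day 22, -1.60 ± 0.40 in WT day 20 and 0.37 ± 0.30 in KO day 22, with n = 4 in each. KO day 20 thus differed from WT day 22 by -0.51, which is nearer than KO and WT at day 20 (1.11 apart) but not nearer than KO and WT at day 22 (0.35 apart). Without KO_d20 replicate 2 the difference was -0.22, which is smaller than 0.35, so this order rests on that library.

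**Figure D1:**
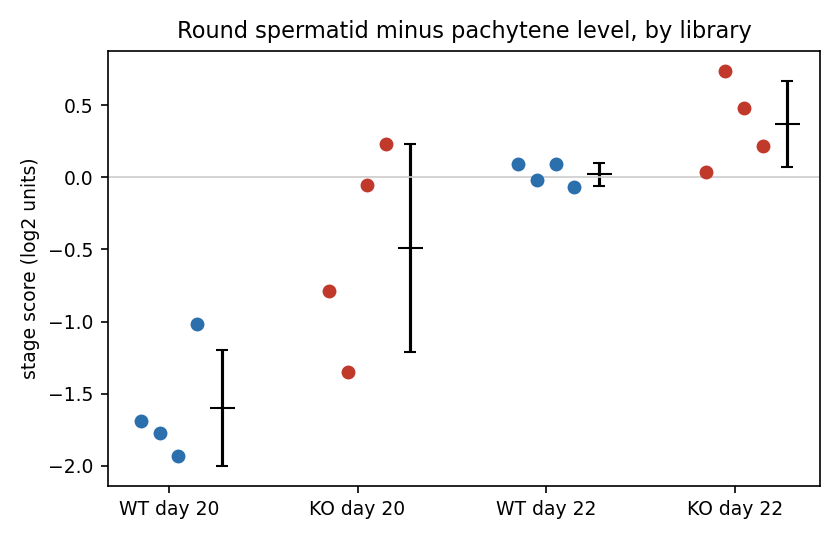
Stage score (y axis, log2 units) of the 16 libraries of days 20 and 22, by genotype and day on the x axis; dots are libraries (red KO, blue WT) and the black marks are mean and SD. KO day 20 spans -1.35 to 0.23 and overlaps WT day 22, which spans -0.07 to 0.09.

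Of the 17170 genes tested, 158 (0.920%) were called, of which 137 (0.798%) were lower and 21 (0.122%) higher in KO day 20. The median log2 fold change over all genes was 0.02, and 2843 genes had an unadjusted p under 0.05. The lower genes had a median of -0.90 and reached -4.14, and the higher genes had a median of 0.62 and reached 1.99. Among the lower genes 101 (73.7%) code for proteins, 30 (21.9%) are annotated as noncoding RNA and 5 (3.65%) as pseudogenes, beside 92.0%, 6.73% and 1.02% of the genes tested. Over all genes tested, the KO day 20 and WT day 22 libraries did not overlap in 2508 (14.6%), and a called gene is nearly bound to be among these. Of the 158 called genes only Hal overlapped, which encodes histidine ammonia-lyase. Hal had at most 3 counts in every KO day 20 library, and in WT day 22 it was at 0 in replicate 1 and at 2.43, 2.56 and 2.45 CPM in the others. Its WT mean was at least 9.13-fold above the 3-count floor averaged over the KO libraries, with an adjusted p of 0.0474 in edgeR. The number of calls depended on the libraries in the fit: it was 846 with only the 8 libraries and 943 without WT_d20 replicate 2, a library outside the comparison, and fell to 51 without KO_d20 replicate 2, 58 without WT_d22 replicate 4, 68 without WT_d22 replicate 1, 75 without KO_d20 replicate 3, 94 without KO_d20 replicate 4 and 103 without WT_d22 replicate 3. The number also moved with the method, to 534 with DESeq2 and 56 with the stage score in the model. In all 33 settings 40 genes were called, 36 of them lower.

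Atad2 itself (chr15:58094044-58135082, minus strand, mm10) was measured first. Its levels were 30.8, 37.1, 36.0 and 32.2 CPM in KO day 20 and 93.2, 91.8, 78.2 and 76.1 CPM in WT day 22. Every KO library lay below every WT library, with a log2 fold change of -1.32 (SE 0.182, edgeR adjusted p = 0.000495). The counts cover the whole gene, including exons upstream of the cassette that the KO allele still transcribes. Atad2 fell by 1.48 in the reverse pairing and by 1.34 at days 24 and 26 on the log2 scale, and its change from day 20 to day 22 was -0.08.

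Kcnab1 and Asb4 were among the genes with the largest decreases. Kcnab1, a potassium channel beta subunit, read 0.363, 0.589, 0.594 and 1.35 CPM in KO day 20 and 11.8, 12.3, 10.9 and 16.8 CPM in WT day 22. It had a log2 fold change of -4.14 (SE 0.711, edgeR adjusted p = 0.00642). At day 20 the WT libraries were split, with Kcnab1 at 13 and 12.8 CPM in replicates 1 and 2 and at 1.10 and 1.01 CPM in replicates 3 and 4, within the KO day 20 range. Asb4 (chr6:5383386-5433022), which encodes an ankyrin repeat and SOCS box protein, read 7.83, 3.86, 4.16 and 3.18 CPM in KO and 52.1, 40.4, 56.6 and 61.1 CPM in WT. Its log2 fold change was -3.47 (SE 0.306, edgeR adjusted p = 1.55e-06), with no overlap. The WT day 20 mean of Asb4 was 23.5 CPM and the KO day 22 mean 4.45 CPM, so both KO groups lay below both WT groups in their means.

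Of 22 tested genes for glutamate, GABA and glycine receptor subunits, 2 were called, both lower, where 0.798% of all genes were called lower. Grin2b, an NMDA receptor subunit, read 0.363, 0.458, 0.198 and 0.0677 CPM in KO day 20 and 2.46, 3.09, 2.50 and 3.12 CPM in WT day 22, a log2 fold change of -3.33 (SE 0.576, edgeR adjusted p = 0.00474). WT day 20 was split as for Kcnab1, with 1.81 and 1.37 CPM in replicates 1 and 2 and 0.173 and 0.144 CPM in replicates 3 and 4. Grik2, a kainate receptor subunit, read 3.63, 4.97, 1.92 and 2.17 CPM in KO and 11.8, 11.5, 10.4 and 12.4 CPM in WT, a log2 fold change of -1.86 (edgeR adjusted p = 0.000296). The median of the 22 was -0.07, near that of all genes. The AMPA receptor genes Gria1 and Gria4 gave -0.00 and 0.07 and did not pass the test. Nps, the neuropeptide S precursor, averaged 0.308 ± 0.101 against 1.91 ± 0.397 CPM (SD, n = 4 each). Mdga2, a cell adhesion protein of synapses, averaged 2.79 ± 0.232 against 10.2 ± 0.532 CPM. Loxhd1, a protein of hair cell stereocilia, averaged 2.24 ± 0.152 against 9.48 ± 0.452 CPM. All 3 fell, by 2.60, 1.87 and 2.08 on the log2 scale.

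Noncoding RNAs and pseudogenes were also among the lower genes. A330076C08Rik, a long intergenic noncoding RNA (chr13:44185760-44216487), read 0.943, 1.24, 1.19 and 1.08 CPM in KO day 20 and 9.44, 10.7, 9.20 and 11 CPM in WT day 22, the lowest adjusted p of the comparison (edgeR, 6.46e-07). 4933406K04Rik, another such RNA (chr12:106685607-106716362), averaged 0.731 ± 0.0935 against 5.79 ± 1.20 CPM (SD, n = 4 each). H2afy3, a processed pseudogene of the macroH2A family (chr15:62218221-62219332), averaged 2.58 ± 0.221 against 16.6 ± 1.48 CPM and lies 4.1 Mb from Atad2. Sycp1-ps1, a processed pseudogene of the synaptonemal complex gene Sycp1, averaged 0.873 ± 0.277 against 4.39 ± 0.531 CPM. Pairs with several alignments were discarded before deposit, so counts of these pseudogenes are uncertain where a copy is near identical. D6Ertd474e, 1700047M11Rik and 4930522O17Rik, also noncoding, had log2 fold changes of -2.30, -2.18 and -2.57. Samd7, a gene known from photoreceptors, averaged 5.07 ± 0.845 against 12.6 ± 1.38 CPM (SD, n = 4 each), a log2 fold change of -1.31.

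The start regions of Asb4, A330076C08Rik, 4933406K04Rik, Grik2 and Mdga2 are shown as examples of genes that were called lower in every setting, in the reverse pairing and at days 24 and 26. The sequences are from RefSeq (GRCm38.p6), 300 bases each, 5′ to 3′ on the gene's strand, and capitals mark every CG dinucleotide, which reads the same on both strands. They lie at chr6:5383136-5383435 (plus), chr13:44216438-44216737 (minus), chr12:106716275-106716574 (minus), chr10:49788705-49789004 (minus) and chr12:67222500-67222799 (minus).
Asb4: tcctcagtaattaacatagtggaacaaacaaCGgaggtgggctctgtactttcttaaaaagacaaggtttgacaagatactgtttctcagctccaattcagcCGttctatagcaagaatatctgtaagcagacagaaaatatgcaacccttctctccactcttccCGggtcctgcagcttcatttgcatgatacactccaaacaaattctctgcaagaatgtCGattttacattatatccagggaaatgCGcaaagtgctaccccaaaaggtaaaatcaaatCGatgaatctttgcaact
A330076C08Rik: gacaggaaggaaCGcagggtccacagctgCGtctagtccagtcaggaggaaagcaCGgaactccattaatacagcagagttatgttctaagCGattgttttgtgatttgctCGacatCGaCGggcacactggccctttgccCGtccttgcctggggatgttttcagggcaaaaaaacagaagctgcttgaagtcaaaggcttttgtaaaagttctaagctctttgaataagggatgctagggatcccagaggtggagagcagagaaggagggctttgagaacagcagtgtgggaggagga
4933406K04Rik: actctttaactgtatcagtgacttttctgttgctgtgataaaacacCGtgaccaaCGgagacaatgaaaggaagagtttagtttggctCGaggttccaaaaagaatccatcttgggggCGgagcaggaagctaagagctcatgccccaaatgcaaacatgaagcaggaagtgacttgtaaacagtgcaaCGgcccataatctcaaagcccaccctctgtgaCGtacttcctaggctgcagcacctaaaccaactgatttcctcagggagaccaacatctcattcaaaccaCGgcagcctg
Grik2: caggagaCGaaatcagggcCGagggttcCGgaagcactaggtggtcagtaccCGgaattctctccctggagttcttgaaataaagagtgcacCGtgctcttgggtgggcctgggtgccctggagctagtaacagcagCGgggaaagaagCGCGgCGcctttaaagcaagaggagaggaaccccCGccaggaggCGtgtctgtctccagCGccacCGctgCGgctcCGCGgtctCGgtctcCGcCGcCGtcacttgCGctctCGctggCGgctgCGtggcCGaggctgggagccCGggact
Mdga2: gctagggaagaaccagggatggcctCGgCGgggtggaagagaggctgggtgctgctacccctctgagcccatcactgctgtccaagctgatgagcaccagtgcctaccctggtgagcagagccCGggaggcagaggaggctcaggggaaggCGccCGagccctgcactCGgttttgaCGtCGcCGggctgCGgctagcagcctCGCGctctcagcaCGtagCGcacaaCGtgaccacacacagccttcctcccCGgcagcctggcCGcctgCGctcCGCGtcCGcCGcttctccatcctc

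These windows hold 6, 8, 7, 26 and 22 CG dinucleotides, so they range widely. Over the 13516 tested genes with a RefSeq start region the median was 18, and 98.4% held at least 1. The 28 matched of the 41 genes lower both here and at days 24 and 26 had a median of 7.0, and 32.1% of them held 5 or fewer, beside 17.9% of all. The 36 matched of the 50 genes that were lower here but higher in the reverse pairing had a median of 21.0, with 22.2% at 5 or fewer. The 100 matched of all 137 lower genes had a median of 9.0, with 27% at 5 or fewer, and the 19 matched of the 21 higher genes a median of 14, with 36.8% at 5 or fewer. No test was made of these numbers.

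Fcgr3, a low affinity receptor for IgG, read 25.5, 20.5, 26.9 and 22.6 CPM in KO day 20 and 63.2, 52.6, 55.7 and 61.2 CPM in WT day 22, a log2 fold change of -1.29 (SE 0.186, edgeR adjusted p = 0.000895). In the reverse pairing it was at -0.20 and was not called (edgeR adjusted p = 0.412). WT day 20 read 49.1 and 35.4 CPM in replicates 1 and 2 and 21.1 and 22.0 CPM in replicates 3 and 4, the latter within the KO day 20 range. Fcrla, an Fc receptor-like gene, averaged 0.495 ± 0.12 against 2.85 ± 0.932 CPM (SD, n = 4 each). Its WT day 20 replicates 3 and 4, at 0.751 and 0.864 CPM, lay just above the highest KO day 20 library (0.653 CPM), and replicates 1 and 2 read 2.91 and 2 CPM. Clnk, an adaptor of immune receptor signalling, averaged 0.171 ± 0.117 against 1.22 ± 0.283 CPM. Its KO day 20 counts were 3, 0, 4 and 3, so this KO level lies at about the 3-count floor. None of the 10 macrophage markers was called. Their median was 0.06, 8 were above 0, and their summed level was 262 to 386 CPM in KO and 292 to 319 CPM in WT, with Csf1r at 0.07 and Adgre1 at 0.03. Fcrla and Fcgr3 lie 123591 bases apart on chromosome 1, where 22 of 991 tested genes (2.22%) were called, beside 0.920% of all genes and 0.137% to 1.86% on the other chromosomes counted, the autosomes and X. Between Gm7694 and Kcnj9 (chr1:170298199-172329318) 48 genes were tested and 5 were called, Gm7694, Fcrla, Fcgr3, Slamf7 and Kcnj9, all lower, while 28 of the 48 lay below 0. The ends of this window are themselves called genes, so its 5 of 48 cannot be read against the share of all genes.

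Few genes were higher. Trim12a and Trim34a, tripartite motif genes of a family with antiviral members, lie 37660 bases apart on chromosome 7. Trim12a read 14.6, 12.8, 10.2 and 9.21 CPM in KO day 20 and 4.79, 5.18, 3.84 and 3.32 CPM in WT day 22, a log2 fold change of 1.45 (SE 0.179, edgeR adjusted p = 0.000111). Trim34a averaged 8.86 ± 0.813 against 4.34 ± 0.864 CPM (SD, n = 4 each), and the olfactory receptor gene Olfr616, 675314 bases away, averaged 0.941 against 0.294 CPM. The Trim genes have close paralogs, so their counts share the uncertainty of the pseudogenes.

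Rbpj, the transcription factor of Notch signalling, read 53.2, 67.0, 60.6 and 58.8 CPM in KO and 34.2, 37.6, 39.5 and 38.4 CPM in WT, a log2 fold change of 0.68 (edgeR adjusted p = 0.00186). Trim12a, Trim34a and Rbpj were called in every setting. Gm597 and Tagap1, at 1.01 and 0.69, lost the call in 4 of 24 leave-outs each. A430033K04Rik (0.72) and 4933427D06Rik (0.68) lost it in 4 and 6. All 4 also lost it with only the 16 samples of days 20 and 22, and all but Gm597 with the stage score in the model. Nebl (1.99), Lct (0.79) and Eps8 (0.62) lost it in 20, 18 and 19 leave-outs, and also with the 16 samples, the stage score, the replicate block and no filter on low counts (Eps8 at a minimum count of 30 too), so these calls stand at the threshold.

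**Figure D2:**
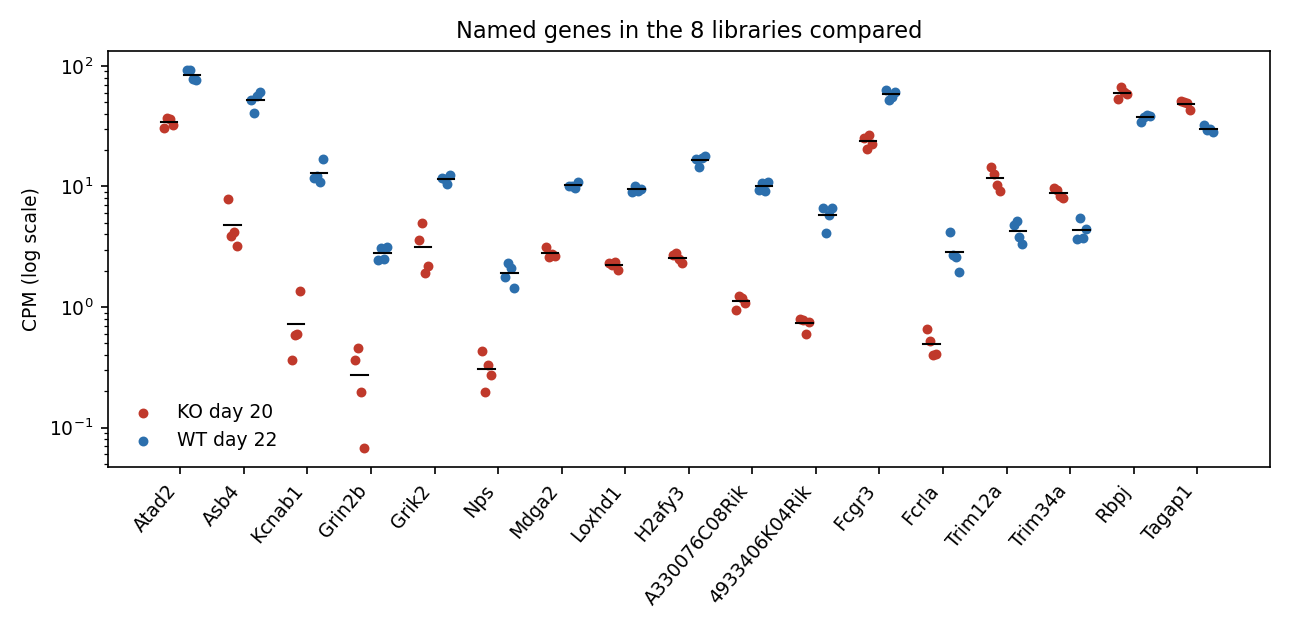
CPM (y axis, log scale) of 17 named genes in the 4 KO day 20 (red) and 4 WT day 22 (blue) libraries; lines are group means. Asb4 spans 3.18 to 7.83 CPM in KO and 40.4 to 61.1 CPM in WT. No gene shown overlaps between groups, which the choice of called genes nearly ensures.

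The 137 lower genes were then read in the reverse pairing, in which 14.4% of all genes were called lower and 18.8% higher. Of the 137, 42 (30.7%) were again lower in KO, 50 (36.5%) were higher in KO and 45 passed in neither direction. The 42 had medians of -1.73 here and -1.27 in the reverse pairing. The 50 had medians of -0.66 and 0.71, and their median change from day 20 to day 22 was 0.66 with a median genotype difference of 0.06. A gene lower here and higher there must, by construction, change more between the days than between genotypes. The larger day term of the 50 thus follows from how they were chosen. The sizes of these sets depend on the fit: with 1 library left out the 42 ranged from 28 to 49 and the 50 from 3 (without KO_d20 replicate 2) to 442 (without WT_d20 replicate 2). Both were 0 with the stage score in the model, where edgeR called 0 genes in the reverse pairing and 1330 had an unadjusted p under 0.05.

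At days 24 and 26, 0.483% of all genes were called lower and 0.146% higher in KO. Of the 137 lower genes 41 (29.9%) were called lower there, which is 49.4% of the 83 lower genes of those days, and none was called higher. The 41 fell to between 23 and 27 without either KO_d24 library, either KO_d26 library or WT_d26 replicate 2. The calls of those days, 108 in all, fell to between 31 and 60 without any of these or without WT_d24 replicate 2 or WT_d26 replicate 1. Of the 41, 35 belonged to the 42, none to the 50 and 6 to the remaining 45. Asb4 fell by 2.7 there, A330076C08Rik by 2.76, Mdga2 by 1.66, Grik2 by 1.70 and Fcgr3 by 1.32 on the log2 scale. Of the 21 higher genes, Trim12a, Tagap1 and Gm597 were called higher at days 24 and 26, at 0.92, 0.60 and 1.24. In the reverse pairing 10 of the 21 were called lower and 2, Gm597 and Tagap1, higher.

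**Figure D3:**
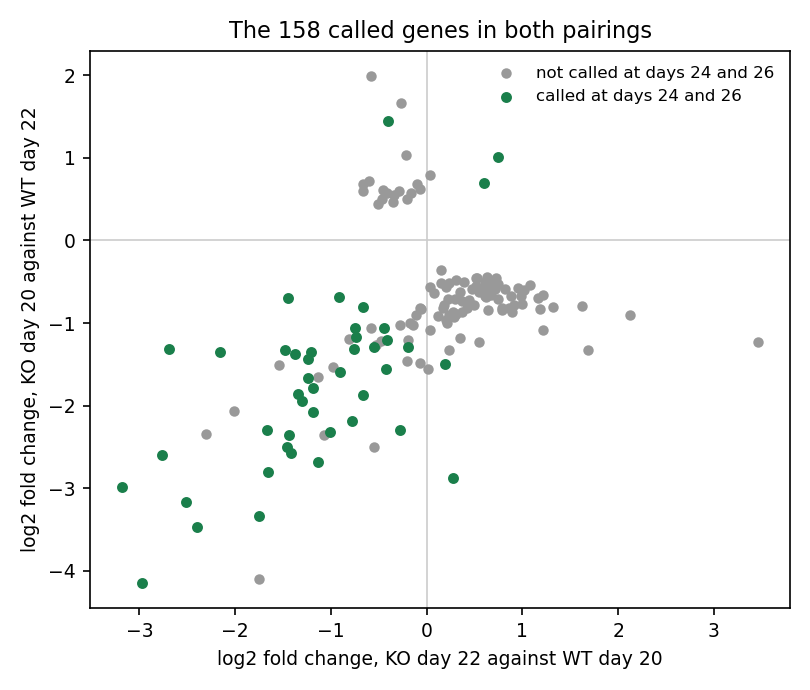
Log2 fold changes of the 158 called genes in KO day 20 against WT day 22 (y axis) and in KO day 22 against WT day 20 (x axis); green dots were also called at days 24 and 26. Of the 137 lower genes, 42 were called lower and 50 higher on the x axis, and none of those 50 is green.

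The genes whose sign turned include Ccna1, the cyclin of male meiotic division. It read 67.3, 56.4, 67.1 and 72.7 CPM in KO day 20 and 137, 105, 112 and 114 CPM in WT day 22, a log2 fold change of -0.83 (SE 0.161, edgeR adjusted p = 0.0133), and 1.18 in the reverse pairing. The call was lost without KO_d20 replicate 2 or WT_d22 replicate 1, with only the 16 samples of days 20 and 22, and with the stage score in the model (edgeR adjusted p = 0.0893), while the fold change stayed between -0.88 and -0.68 in all 32 alternatives. Others, chosen after their values were seen, were Nme8, a thioredoxin domain protein of the axoneme, at -0.80 and 1.32, Adam32, a sperm-surface metalloprotease family member, at -0.56 and 0.66, and Galnt3, which starts mucin-type glycosylation, at -0.67 and 0.99 in the respective pairings.

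Few members of the germ cell lists were called, which says little for lists of this size where 0.920% of all genes were called. All 15 round spermatid genes lay below 0, with a median of -0.58, and none was called. The acrosomal protease gene Acr gave -0.71 and the sperm-egg fusion gene Izumo1 -0.52. The mean centred log2 level of this list was -1.24, -2.03, -0.50 and -0.04 in the KO day 20 libraries. In WT day 22 it was 0.17, -0.35, -0.04 and -0.19, so KO replicate 4 lay within the WT range. This list and the pachytene list also make up the stage score. All 21 axoneme and flagellum genes lay below 0, with a median of -0.49, none called and 14 with an unadjusted p under 0.05, such as Tcte1 at -0.96 and Tekt2 at -0.64. All 11 pachytene genes lay below 0, with a median of -0.36 and none called. Over all genes 47.5% lay below 0, 16.6% had an unadjusted p under 0.05 and the median was 0.02. In the reverse pairing the medians of these 3 lists were 3.75, 0.74 and 0.62. Of 11 meiotic division genes 1 was called, Ccna1, beside 0.920% of all genes, and the median was -0.20. The 14 elongating spermatid genes were split, 6 above and 8 below 0 with none called, over a range of -1.19 to 2.53. Their summed level was 11.2 to 204 CPM in KO day 20 and 86 to 192 CPM in WT day 22, so the KO libraries spread over both sides of the WT libraries. Prm1, a protamine of condensing spermatids, had 40, 0, 21 and 104 counts in KO and 16, 2, 6 and 6 in WT.

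Lists of early germ cells and Sertoli cells had medians above 0. Of 13 spermatogonial genes 11 lay above 0, with a median of 0.25 and none called, among them the stem cell factor receptor gene Kit at 0.40. Early meiosis genes had a median of 0.13, and Sertoli genes 0.17, with Fshr, the follicle-stimulating hormone receptor, at 0.38. DNA replication genes had a median of 0.08 and piRNA pathway genes -0.07. None of these lists had a called member, which says little for lists of this size where 0.920% of all genes were called. The Leydig median was -0.31 and that of collagen and matrix genes -0.11, with 15 of 20 below 0, again with none called. Of the blood markers 2 were tested, with a median of 0.95, and of the epididymis markers 3, with a median of -1.15 and none called in either list. The epididymis markers marked single libraries: their summed level ran from 0 to 50.9 CPM in KO day 20 and from 0 to 531 CPM in WT day 22. Crisp1, the leading one, had 645 counts in KO_d20 replicate 3, 230 in WT_d22 replicate 3, 10167 in WT_d22 replicate 4 and at most 8 in the other 5 libraries. Without these 3 libraries in turn there were 75, 103 and 58 calls, but there were also 51 without KO_d20 replicate 2 and 68 without WT_d22 replicate 1, which had at most 8 Crisp1 counts. The part of epididymis RNA in the calls was not tested.

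Of 17 genes for histone H3.3 and histone chaperones none was called, where 0.920% of all genes were, and their median was 0.07. An unadjusted p under 0.05 was found for 2 of them (11.8%), beside 16.6% of all genes. Hira, the H3.3 chaperone that acts outside replication, gave 0.21, and the H3.3 genes H3f3a and H3f3b gave -0.00 and 0.22. Atad2b, the paralog of Atad2, gave 0.11. Nasp, a chaperone of H3 and H4, gave -0.48 at an unadjusted p of 0.0075. Of 11 histone eviction genes none was called, with a median of 0.09, and 4 (36.4%) had an unadjusted p under 0.05, 3 of them lower. The bromodomain gene Brdt gave -0.26. On the X chromosome, which is silenced during meiosis, 729 genes were tested and their median was 0.17, beside 0.01 on the autosomes. Of the X genes 31% lay below 0, beside 47.5% of all genes, and 21.5% had an unadjusted p under 0.05. Of them 1 (0.137%) was called, Gprasp2, at 0.50, beside 0.920% of all genes. The X median turned sign in the reverse pairing, to -0.38, beside -0.03 on the autosomes. At the later days it was -0.17, beside -0.01. The median genotype difference of the X genes was -0.06 and their median change between the days -0.28, beside 0.01 and -0.03 on the autosomes. A higher X level in KO was thus not seen in these other comparisons.

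**Figure D4:**
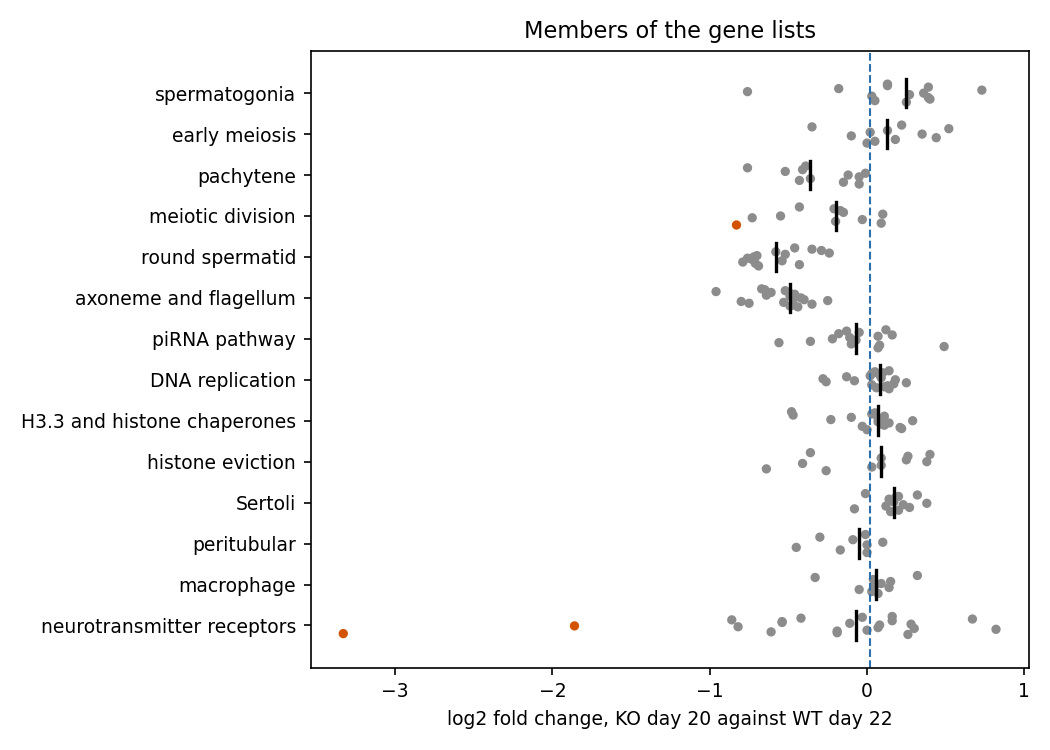
Log2 fold change of KO day 20 against WT day 22 (x axis) for the members of 14 gene lists (y axis); black bars are list medians, orange dots are called genes and the dashed line is the median of all genes, 0.02. Round spermatid and axoneme members all lie below 0, while the only called members are Ccna1, Grin2b and Grik2.

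A list of 9 genes taken from earlier results of these libraries as lower in KO (Asb4, Mdga2, Arfgef3, Ptpro, Kcnab1, Grin2b, Nps, A330076C08Rik and 4933406K04Rik) had all 9 called lower, with a median of -2.98. It was chosen on these libraries, so it is no independent evidence of direction. Arfgef3 averaged 5.78 ± 0.615 against 15 ± 3.08 CPM, and Ptpro, a receptor tyrosine phosphatase, 3.95 ± 0.72 against 8.89 ± 0.52 CPM (SD, n = 4 each). Ptpro missed the threshold only without KO_d20 replicate 2. Its neighbour Eps8, 14012 bases away, was higher.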

How the data were processed

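Ribosome-depleted, strand-specific total RNA of mouse testis was sequenced as read pairs. Per the labels and the study's methods, the authors aligned reads to mm10 with STAR 2.7.11b and counted pairs per gene with HTSeq, using the strand and dropping pairs with several alignments. What the authors deposited is a table of unnormalized counts for every library, by gene symbol. The gene model version is not given in the sources used here. The tallies of unassigned pairs (no feature, 47.3% to 56.1% of all pairs in the 8 libraries) were left out of library sizes and tests.

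Groups and replicate numbers came from the labels, which give more day 20 replicates than the methods text. Genes were placed by symbol with GENCODE (23378) or RefSeq (961), and 117 were not placed. Counts of all 24 libraries were fitted with edgeR 4.0.16 in R 4.3.3 (TMM, filterByExpr at a minimum count of 10, robust quasi-likelihood, two-sided), with 1 coefficient for each of 8 groups and no block, and p-values were Benjamini-Hochberg adjusted. The authors used DESeq2 1.22.2, and DESeq2 1.42.0 was an alternative here, as were other scaling, filters, sample sets, a replicate block, the stage score as a covariate and leaving out each library. Stage and list scores used log2 CPM with a prior count of 2. A floor of 3 counts covers counting error only, since read pairs carry no molecular identifiers. No pair of replicates agreed within sampling noise. The fit was tested on simulated data.

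The comparison, its gene lists and tests were chosen with earlier results of these data known. Named genes were Atad2, the 10 largest changes per direction among called genes without overlap and with a mean of at least 1 CPM in the higher group, up to 4 called members per list, up to 15 genes called alike at days 24 and 26 by lowest p, and the 9 genes of the earlier list.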

Additional observations from a re-analysis of the deposited data

Results flagged for a closer look

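Of 112 groups of 4 libraries checked for a library far from the rest, over named genes and list scores in KO day 20 and WT day 22, 2 stood out, and chance marks about 1 group in 20. The Leydig score of WT day 22 read -0.05, -0.10, -0.52 and -0.02, so replicate 3 was set apart by 0.851 of the group's range. The endothelial score of KO day 20 read -0.28, 0.28, 0.19 and 0.28, so replicate 1 was set apart by 0.836 of the range. No Leydig or endothelial marker was called in the comparison, which says little where 0.920% of all genes were called. Without WT_d22 replicate 3 there were 103 calls and without KO_d20 replicate 1 there were 122, beside 158.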

How the results depend on the processing

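No named gene changed sign under any of the 32 alternatives in which it was tested (Nebl was tested in 31), and 23 of the 32 named genes were called in each. The calls of KO day 20 against WT day 22 (higher and lower) numbered 534 (114 and 420) with DESeq2, 846 (175 and 671) with only the 8 samples, 49 (5 and 44) with the 16 samples of days 20 and 22, and 56 (8 and 48) with the stage score added to the model. Leaving out 1 library gave 51 to 943 calls, 6 to 282 higher and 45 to 661 lower. Genes lower here but higher in the reverse pairing numbered 262 with DESeq2, 93 at a minimum count of 30, 2 with 16 samples, and 3 to 442 with 1 library left out. Genes lower in both pairings numbered 26 with 16 samples and 28 to 49 with 1 library left out. With the stage covariate both numbers were 0, since edgeR then called 0 genes in the reverse pairing (1330 at an unadjusted p under 0.05, beside 5699 called without it). Genes lower also at days 24 and 26 numbered 23 to 58. Calls at days 24 and 26, 108 in the reported fit, were 216 with the stage score in the model, 271 with DESeq2 and 31 to 98 with 1 library left out, and calls in the reverse pairing 3836 to 6017. Atad2 stayed between -1.37 and -1.27, and the stage score difference between -0.75 and -0.22 around -0.51. The cause of these shifts was not tested.

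Deviations from the group mean of same-numbered KO day 20 and WT day 22 libraries correlated at -0.01, 0.24, -0.03 and -0.12. This check cannot show a split within a group. The mean chi-square per gene between libraries was 8.96 for KO day 20 replicates 1 and 2 and 5.07 for 3 and 4. Across these pairs it was 19.8 to 28.7. In WT day 22 it was 10.7 and 6.71, and 11.9 to 14.8 across. The cause of these splits was not tested. With the replicate number as a block 162 genes were called, 24 higher and 138 lower, Atad2 was at -1.31, and 134 of the 158 calls were kept.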
